A study of Rattus norvegicus with 3 samples.

Results

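A set of 9 genes of the retinoic acid system were followed here in the neonatal rat retina: the synthesis genes Aldh1a1, Aldh1a2 and Aldh1a3, the breakdown genes Cyp26a1 and Cyp26b1, the receptor genes Rara and Rarb, and the binding protein genes Crabp1 and Crabp2. They were chosen by symbol, with earlier results of these data known, and all 9 are listed among the 18425 genes of the deposited table. The marker and pathway lists used below were also chosen with those results known, so they are no independent support. Wild-type Sprague Dawley pups had received 1 µl of citrate buffer (pH 4.5), of saline, or of streptozotocin (STZ) into the vitreous at P1, and whole retinas were collected at P4. STZ, a nitrosourea linked to glucosamine, damages DNA by alkylation, and its dose in the sequenced group was 10 µg. Each condition was 1 library, and the number of animals or retinas behind it is not given in the sources used here. There was therefore no replicate check of any difference, no p-value was computed, and treatment, animals and dissection cannot be told apart. In the authors' intravitreal experiments, the right eye of a pup received STZ and its left eye received buffer. The buffer and STZ retinas may therefore share animals. Whether the sequenced retinas did, and which animals received saline, is not given in the sources used here. In bulk retina, fewer cells of a type and less RNA per cell cannot be told apart either.

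Retinoic acid is made from vitamin A. Retinol is oxidized to retinaldehyde, and the ALDH1A enzymes oxidize retinaldehyde to retinoic acid. The CYP26 enzymes break retinoic acid down, the CRABP proteins carry it in the cytoplasm, and it acts through the nuclear receptors RARα, RARβ and RARγ, which pair with RXR partners on DNA. In the developing eye, Aldh1a1 is known as a gene of the dorsal retina, Aldh1a3 as a gene of the ventral retina, and Cyp26a1 as a gene of the zone between them. Rarb and Cyp26a1 are themselves textbook targets of retinoic acid.

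The receptor binds DNA at a direct repeat of a short half-site with 5 bases between the copies, and this element is shown because 2 of the 9 genes carry it beside their start. RefSeq promoter windows of the assembly GRCr8, from 250 bases before the gene start, matched all 9 genes. Both strands were searched for GTTCANNNNNAGTTCA, a form written from the known elements of these genes, so that finding it in them is no result. The half-sites are in capitals.
Rarb: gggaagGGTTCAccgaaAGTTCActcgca
Cyp26a1: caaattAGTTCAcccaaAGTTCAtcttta
The Rarb stretch is chr15:11336410-11336438 on the plus strand of GRCr8, and its element covers bases 25 to 41 of the transcript. The Cyp26a1 stretch is chr1:244883724-244883752 and is written from the minus strand, opposite to the gene, with the element 92 to 76 bases before the start. The 17 bases of the 2 elements are identical at 15 positions. Of all 33469 promoter windows, 9 hold this motif, which is 0.0269%. A looser search, which allowed A or G at the first base and G or T at the third base of both half-sites and kept the 5-base spacing, matched 128 windows or 0.382%. It shared 6 windows with the first search and again found Rarb and Cyp26a1 alone among the 9 genes. The pair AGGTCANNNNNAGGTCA was in 3 windows and in none of the 9. As described below, both genes with the element had most reads in saline, as did Aldh1a1, Aldh1a2, Aldh1a3 and Rara without it. For Cyp26a1 the difference between saline and buffer was within counting error. Rarb but not Cyp26a1 had fewer reads in STZ than in buffer. The part of retinoic acid in these values was not tested.

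The libraries were of nearly equal depth, between 21977846 and 22031241 rounded reads. Levels are given as FPKM (fragments per kilobase, corrected for the size of the library), which can be compared between genes. A fold is the study's (FPKM + 1)/(FPKM + 1), and its thresholds of 1.54 and 0.65 are used as a rule of size. Where a gene is weakly expressed, the added 1 brings its fold closer to 1. The second measure is the read ratio, a gene's share of the reads in one library over its share in another. The 95% interval of a read ratio is exact (Clopper-Pearson) and holds the error of counting alone, since each condition is 1 library. Without molecular identifiers the reads are not independent molecules, so the interval may be too narrow even for that error. A read ratio is called apart from 1 here when this interval excludes 1. The 6 retina markers reported here (Rax, Six3, Six6, Lhx2, Pax6 and Crx) were present in every library, with summed levels of 937 FPKM in buffer, 931 in saline and 911 in STZ. One of them, Lhx2, a transcription factor of retinal progenitors, was below 0.65 in STZ, with folds of 0.603 against buffer and 0.568 against saline. Of the 6 folds, 4 were below 1 in STZ against buffer, with a median log2 fold of -0.19.

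Levels differed widely among the 9 genes. Crabp1 was the highest in each library, with 183 FPKM in buffer, 241 in saline and 294 in STZ. In buffer it was followed by Aldh1a1 at 46.6 FPKM, Crabp2 at 44.7, Rara at 19.9, Rarb at 6.41, Cyp26a1 at 4.13, Aldh1a3 at 2.16, Aldh1a2 at 0.52 and Cyp26b1 at 0.32. Within this order the counting intervals of Aldh1a1 and Crabp2 overlapped, as did those of Aldh1a2 and Cyp26b1. The other neighbours lay apart. In saline, the order was the same, and Aldh1a1 stood clear of Crabp2 by 3.48 times. In STZ, Crabp2 stood above Aldh1a1 and Cyp26a1 above Rarb, both with overlapping intervals. Cyp26b1 was the least expressed gene in buffer and saline, and Aldh1a2 was in STZ, but the intervals of these genes overlapped in every library.

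**Figure D1:**
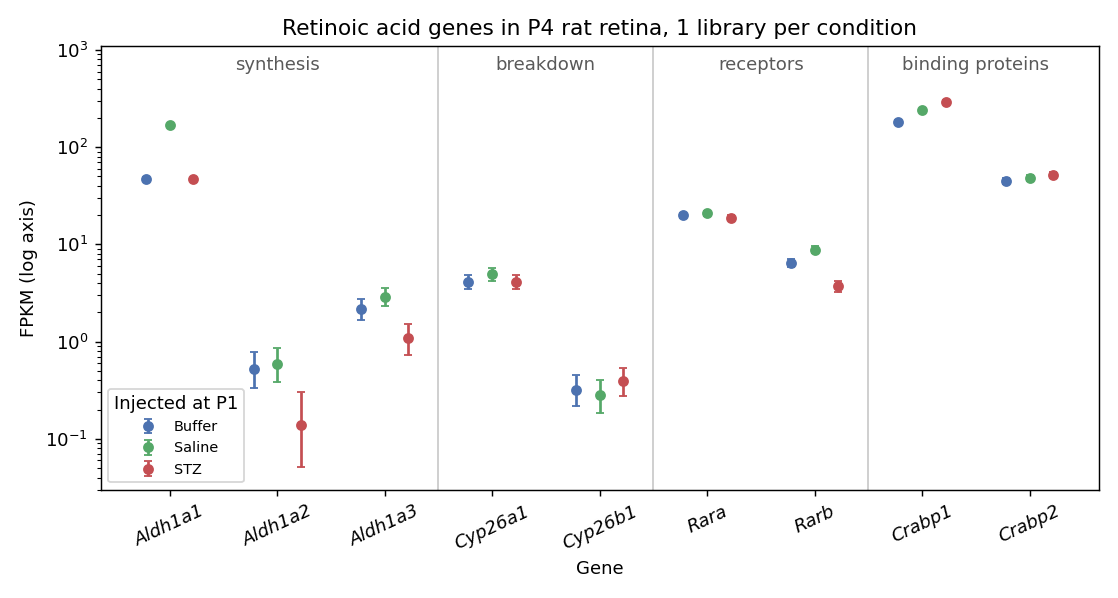
FPKM of the 9 genes on a log axis, 1 point per library, with bars for the exact Poisson 95% interval of the count behind each value. Aldh1a1 is at 168 FPKM in saline against 46.6 and 46.5 in the other libraries, and Rarb, Aldh1a3 and Aldh1a2 are lowest in STZ.

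Aldh1a1, which encodes the most abundant of the 3 retinaldehyde dehydrogenases here, differed between the control libraries and not between buffer and STZ. It had 1904 reads in buffer, 6838 in saline and 1904 in STZ. Saline stood alone, and the buffer and STZ counts were equal. The fold was 3.54 in saline against buffer, with a read ratio of 3.59 (95% counting interval 3.42 to 3.78). It was 0.998 in STZ against buffer, with a read ratio of 0.998 (0.936 to 1.06), and 0.282 in STZ against saline. Aldh1a1 made up 94.6% of the summed FPKM of the 3 synthesis genes in buffer, 98% in saline and 97.4% in STZ. This sum followed it, at 49.3, 171 and 47.8 FPKM. Which control is chosen therefore set whether Aldh1a1 passed the lower threshold in STZ. Of all genes, 1% were higher and 0.429% lower in saline than in buffer, and Aldh1a1 was the only one of the 9 to pass in this comparison.

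Genes of tissue around the neural retina differed in the same library. Of the 9 ciliary and iris epithelium markers, 3 passed 1.54 in saline against buffer, Wfdc1, Gja1 and Aqp1, and 0 fell below 0.65. Wfdc1 had 20 reads in buffer, 258 in saline and 12 in STZ, and Gja1, which encodes connexin 43, had 169, 876 and 214. The summed level of the list was 19.8 FPKM in buffer, 55.2 in saline and 16.7 in STZ, with no marker at 0 reads. Of the 13 pigment epithelium markers, 5 passed in saline against buffer, among them Pmel, Tyr, Tyrp1 and Dct. The 13 summed to 60.4, 77.5 and 60.1 FPKM. Ttr, the most abundant of them, went the other way, at 46.2, 38.7 and 44 FPKM, with a read ratio of 0.835 in saline against buffer (0.729 to 0.956), and Rpe65 was listed at 0 reads in buffer and 2 in the other libraries. The 7 pigment markers averaging at least 10 counts had a median log2 fold of 1.06, and the 6 such ciliary markers 0.95, beside 0.02 over all 14885 genes with that mean. In STZ against buffer the medians were 0.05 and -0.20, beside 0.03 over all genes. Of the 5 lens markers, Cryaa, Crygd and Cryba1 also passed in saline against buffer, with a median log2 fold of 1.04 over the 4 averaging at least 10 counts. Unlike Aldh1a1, these 3 passed in STZ against buffer too. The part of these tissues in the Aldh1a1 value was not tested.

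Dorsal retina genes were also higher in the saline library. Tbx5, a transcription factor of the dorsal retina, had 150, 305 and 92 reads in the buffer, saline and STZ libraries. Bmp4, the secreted signal that acts upstream of dorsal identity, had 18, 102 and 9. With Efnb2, which had 582, 920 and 445 reads, they were the 3 of 6 dorsal genes past 1.54 in saline against buffer. The rest did not pass, and the lowest fold of the list was 1.05. The median log2 fold of the 6 was 0.57 in saline against buffer, -0.35 in STZ against buffer and -0.78 in STZ against saline. The ventral list did not share this. None of its 6 genes passed a threshold in any of the 3 comparisons, and the median log2 fold of the 5 with at least 10 counts was -0.10, -0.23 and -0.13. In STZ against buffer, 5 of the 6 dorsal genes had folds below 1, from 0.706 for Tbx5 upward, and Aldh1a1 was at 0.998. The part of dorsal retina in the Aldh1a1 value was not tested.

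**Figure D2:**
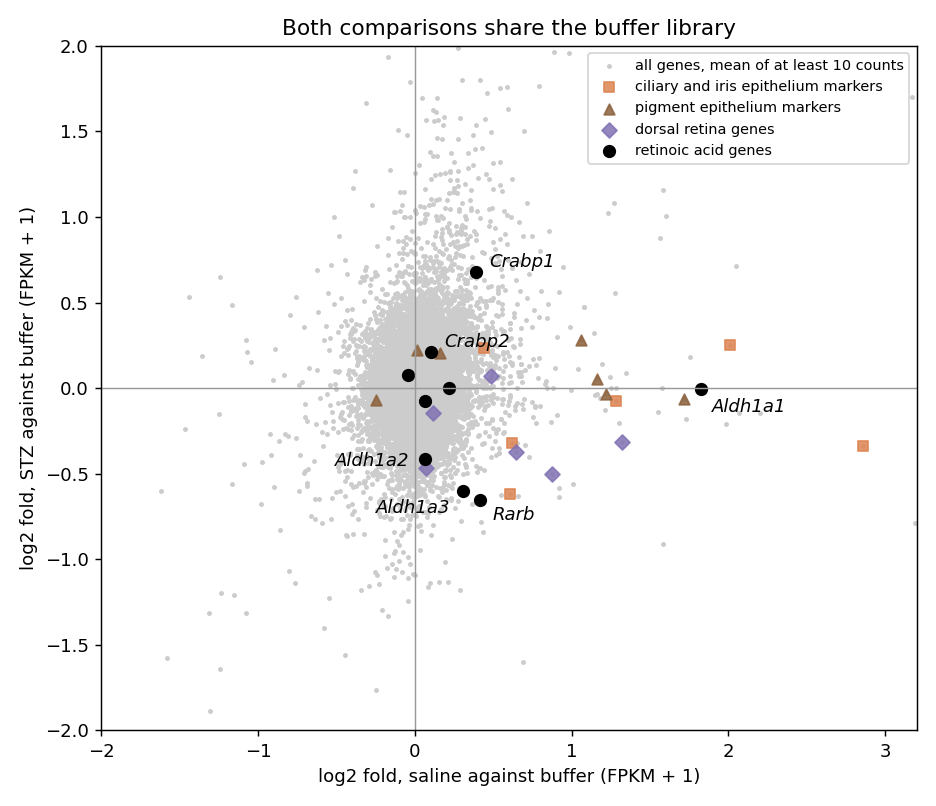
log2 folds of (FPKM + 1) in saline against buffer (x axis) and STZ against buffer (y axis) for 14885 genes averaging at least 10 counts (grey; 47 lie outside the axes), the 9 retinoic acid genes (black) and 3 lists. Aldh1a1 lies at 1.82 on the x axis and 0.00 on the y axis, and most of the ciliary, pigment epithelium and dorsal genes lie to the right of 0, with Ttr at -0.25. Sharing the buffer library ties the 2 axes together.

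By the rule for likeness, the distance between genes in this plane of log2 folds, the 5 genes nearest to Aldh1a1 among 10970 candidates were Pmel at 0.12, Aldh1a7 at 0.20, Ltbp1 at 0.20, the entry gene-Ogn at 0.25 and Syt15 at 0.26. With 3 libraries the measure rests on 2 folds. Candidates needed a mean of at least 50 counts over all 3 libraries, saline included. In buffer, saline and STZ, gene-Ogn had 10, 138 and 10 reads, and Syt15 had 54, 459 and 35. These genes and Aldh1a7 reached that mean only through saline, so their place near Aldh1a1 is partly set by the filter. Pmel, a melanosome protein gene, had 252, 940 and 240 reads in the buffer, saline and STZ libraries. Ltbp1, which encodes a matrix protein that binds latent TGF-β, had 80, 573 and 56. Aldh1a7 is a close paralog of Aldh1a1 in rodents. It had 34, 137 and 40 reads, a read ratio of 4.03 in saline against buffer (2.75 to 6.06), and the Aldh1a1 level was 13.2, 11.7 and 11.2 times its level. The authors discarded reads with several genomic locations, so reads from stretches shared by such copies could be lost, and both values are uncertain to that extent.

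The other 2 synthesis genes were weakly expressed and were lowest in STZ. Aldh1a3, the ventral enzyme, had 62 reads in buffer, 83 in saline and 31 in STZ, or 2.16, 2.9 and 1.08 FPKM. The STZ count lay below both controls. Its read ratio was 0.499 in STZ against buffer (0.313 to 0.78) and 0.373 in STZ against saline (0.238 to 0.569). The folds were 0.658, just short of the lower threshold, and 0.533, past it. With TMM scaling the first became 0.647 and passed. The read ratio of saline to buffer was 1.34 (0.952 to 1.89), an interval that includes 1.

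Aldh1a2, whose enzyme makes retinoic acid in mesenchyme and other embryonic tissues, had 23, 26 and 6 reads, a level below 1 FPKM in each library. The read ratio was 0.26 in STZ against buffer (0.0867 to 0.658) and 0.23 against saline (0.0775 to 0.572). Its folds of 0.75 and 0.717 did not pass, since the added 1 exceeds its FPKM. With 0.1 added in their place the folds were 0.387 and 0.348. Markers of periocular mesenchyme and choroid were also low. The collagen gene Col3a1 had 83, 73 and 15 reads, with a fold of 0.628 in STZ against buffer, past the threshold, and 0.665 against saline. Its read ratios were 0.18 (0.0967 to 0.315) and 0.205 (0.109 to 0.361), so it was lowest in STZ. The list did not move together in STZ against buffer, where by the interval 1 marker was lower and 1 higher. In STZ against saline 4 were lower and 1 higher, and in saline against buffer 3 were higher and 0 lower. Of all 18425 genes, 3585 were lower and 4075 higher in STZ against saline. In saline against buffer 2452 of them were higher and 1807 lower. Col1a1 had 291, 316 and 250 reads. The 8 markers reported here summed to 3.74, 5.26 and 3.72 FPKM, with Col1a2 and Lum listed at 0 reads in buffer and Dcn in STZ. Col1a2 passed 1.54 in saline and in STZ against buffer, but it has fractional counts and is uncertain. The part of this tissue in the Aldh1a2 value was not tested.

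**Figure D3:**
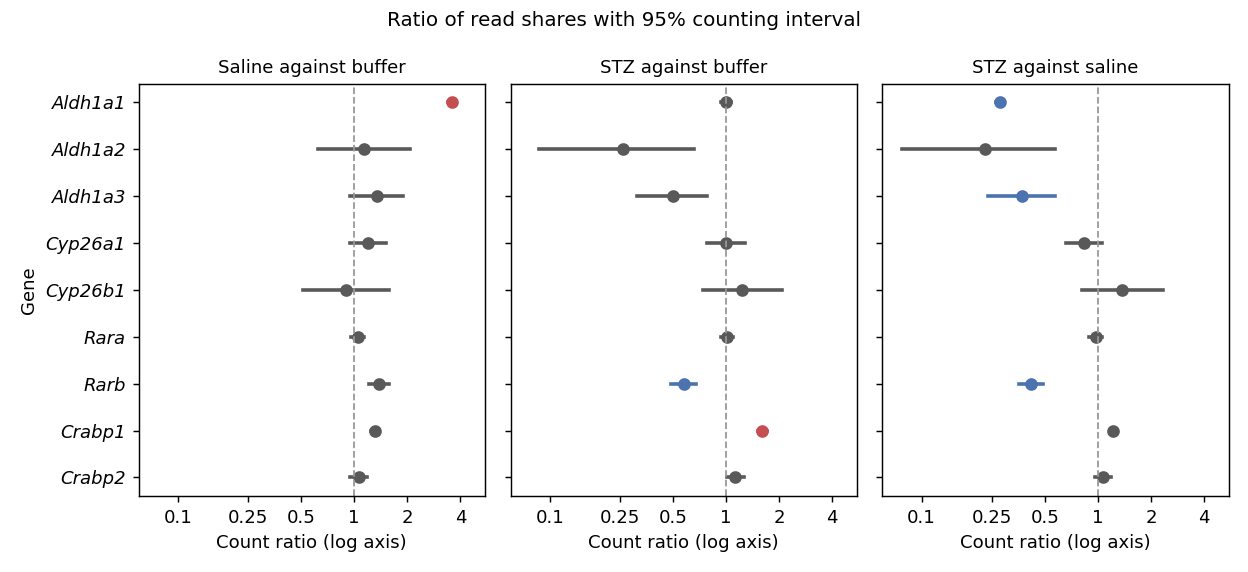
Read ratios of the 9 genes on a log axis in the 3 comparisons, with exact Clopper-Pearson 95% intervals that cover counting error only. Red marks a fold above 1.54, blue a fold below 0.65 and grey neither. Rarb lies at 0.577 and 0.417 in the 2 comparisons of STZ, and the Cyp26a1, Cyp26b1 and Rara intervals include 1 in every panel.

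Neither breakdown gene was distinguishable between libraries at this depth. Cyp26a1, the main retinoic acid hydroxylase of these 2 by level, had 136 reads in buffer, 163 in saline and 136 in STZ. Its read ratio was 0.998 in STZ against buffer (0.781 to 1.28), 1.2 in saline against buffer (0.949 to 1.52) and 0.832 in STZ against saline (0.658 to 1.05). A change within these bounds could not be seen. Cyp26b1 had 30, 27 and 37 reads, with a read ratio of 1.23 in STZ against buffer (0.74 to 2.06). The Cyp26a1 level was 12.9 times that of Cyp26b1 in buffer, 17.7 times in saline and 10.6 times after STZ. The third CYP26 gene, Cyp26c1, had 568, 634 and 708 reads. At 5.08, 5.68 and 6.33 FPKM it was the highest of the 3 in every library, and its read ratio of 1.24 in STZ against buffer (1.11 to 1.39) stayed within the thresholds.

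Of the receptor genes, Rarb was lower in STZ than in both controls and Rara was not. Rarb, which encodes RARβ, had 403 reads in buffer, 557 in saline and 233 in STZ, or 6.41, 8.86 and 3.7 FPKM. STZ was the lowest library and saline the highest. The fold was 0.634 in STZ against buffer, with a read ratio of 0.577 (0.489 to 0.68), and 0.477 in STZ against saline, with a read ratio of 0.417 (0.357 to 0.487). The controls also differed beyond counting error, with a read ratio of 1.38 in saline against buffer (1.21 to 1.58) and a fold of 1.33 that did not pass. By the interval alone, 3 of the 9 genes were higher and 0 lower in saline against buffer, where 15.9% of the 14885 genes averaging at least 10 counts were higher and 12% lower. In STZ against buffer 2 were higher and 3 lower, beside 26.2% and 18.8%, and in STZ against saline 1 was higher and 4 were lower, beside 26.9% and 23.5%. By the folds, Rarb was the only one of the 9 genes below 0.65 in STZ against buffer, where 1.04% of all genes were. In STZ against saline 3 of the 9 were, Aldh1a1, Aldh1a3 and Rarb, beside 1.75% of all genes. These counts share the STZ library and are not independent.

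Rara, which encodes RARα, had 1130, 1180 and 1147 reads and 19.9, 20.9 and 18.8 FPKM. Its read ratio in STZ against buffer was 1.01 (0.933 to 1.1), while its fold by FPKM was 0.95. The 2 differ because the FPKM per read of Rara was 0.933 times as large in STZ as in buffer, so that its direction depends on the unit. With Rarb lower in STZ, the Rara level was 3.1 times the Rarb level in buffer, 2.35 times in saline and 5.09 times in STZ. Rarg, the third receptor gene, had 236, 221 and 220 reads and a read ratio of 0.931 in STZ against buffer (0.771 to 1.12). In STZ, at 3.74 FPKM, it was level with Rarb.

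Of the 2 genes with the response element, Rarb stood at 403, 557 and 233 reads in the 3 libraries, and Cyp26a1 had 136, 163 and 136. Their read ratio intervals in saline against buffer overlapped, 1.21 to 1.58 for Rarb and 0.949 to 1.52 for Cyp26a1. In STZ against buffer they did not overlap, at 0.489 to 0.68 for Rarb and 0.781 to 1.28 for Cyp26a1. Nor did they in STZ against saline, at 0.357 to 0.487 for Rarb and 0.658 to 1.05 for Cyp26a1. The genes with the smallest distance to Rarb were Insig1 at 0.02, Clec18a at 0.05, LOC103690779 at 0.14, Mlc1 at 0.16 and Cgnl1 at 0.17. Insig1, which restrains cholesterol synthesis, had 927, 1226 and 573 reads, and Mlc1, a gene of astrocytes and Müller glia, had 170, 212 and 84. The genes nearest to Aldh1a3 were LOC103690779 at 0.06, Cldn11 at 0.07, Adcyap1r1 at 0.08, Gfap at 0.08 and S100b at 0.08. Gfap, the intermediate filament gene of astrocytes, had 338, 410 and 214 reads in the buffer, saline and STZ libraries, and S100b had 70, 87 and 35. The 7 Müller glia markers had a median log2 fold of -0.02 in STZ against buffer, and only Apoe, also a gene of microglia, passed a threshold there.

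The binding protein genes were the most abundant group, with sums of 228 FPKM in buffer, 289 in saline and 346 in STZ. Crabp1 had 2110, 2764 and 3394 reads, and each library differed from the others beyond counting error. The fold was 1.6 in STZ against buffer, with a read ratio of 1.61 (1.52 to 1.7), and 1.22 in STZ against saline, with a read ratio of 1.22 (1.16 to 1.29). Saline was already above buffer, with a read ratio of 1.31 (1.24 to 1.39). Crabp1 thus passed 1.54 against buffer, as did 2.25% of all genes, but not against saline, where 2.04% did and 0 of the 9. Crabp2 had 674, 714 and 764 reads after rounding and is the 1 gene of the 9 with fractional counts. Its read ratio was 1.13 in STZ against buffer (1.02 to 1.26), and its folds lay between 1.07 and 1.16. The level of Crabp1 was 4.09 times that of Crabp2 in buffer, 5 times in saline and 5.66 times in STZ.

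The 5 genes nearest to Crabp1 were Il17rc at 0.04, Ydjc at 0.07, Cyba at 0.09, Dab1 at 0.09 and Pax4 at 0.09. Dab1, the adaptor of reelin signaling, had 814, 1046 and 1278 reads, and Cyba, a subunit of the phagocyte oxidase, had 96, 123 and 153. Other cell types also differed in the STZ library. The 10 amacrine and ganglion cell markers summed to 449, 423 and 516 FPKM, with 9 of 10 folds above 1 in STZ against buffer and 0 past the threshold. The 6 microglia markers summed to 34.3, 38.8 and 91 FPKM, with 4 past 1.54 in STZ against buffer. The 5 lens markers summed to 9.03, 24.3 and 169 FPKM, and 3 passed in STZ against buffer. In that comparison 8339 of the 14885 genes averaging at least 10 counts had folds above 1, and 2.25% of all genes passed 1.54. No marker of the amacrine, ganglion or microglia lists was at 0 reads, and the lens gene Crybb2 was at 0 in buffer. The part of these cells in the Crabp1, Rarb and Aldh1a3 values was not tested.

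The wider retinoid pathway was read from 5 lists of 49 genes outside the 9, of which 47 were in the table and 36 had a mean of at least 10 counts. In saline against buffer 1 of the 47 passed 1.54, Aldh1a7, and 0 were below 0.65. In STZ against buffer 1 was higher, Rdh12, and 1 was lower, Cyp1b1. In STZ against saline 1 was higher, Rdh12, and 3 were lower, Aldh1a7, Cyp1b1 and Dhrs3. The median log2 fold of the 36 was -0.03, -0.04 and -0.02, beside 0.02, 0.03 and 0.01 over all genes. The genes past a threshold were 2.13%, 4.26% and 8.51% of the 47, beside 1.43%, 3.29% and 3.78% of all genes.

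The single genes of these lists were as follows. Cyp1b1, a P450 enzyme that can oxidize retinol and retinaldehyde among other substrates, had 3171 reads in buffer, 2594 in saline and 1352 in STZ. STZ was lowest, with a read ratio of 0.426 against buffer (0.399 to 0.454) and 0.52 against saline (0.486 to 0.555). Rdh12, a photoreceptor retinol dehydrogenase, had 21, 17 and 64 reads, with a fold of 1.81 in STZ against buffer. Dhrs3, which returns retinaldehyde to retinol, had 55, 92 and 41 reads, with a fold of 0.583 in STZ against saline, but 0.835 against buffer. Rdh10, which makes the retinaldehyde used for retinoic acid, had 467, 581 and 435 reads and passed no threshold, with a read ratio of 1.24 in saline against buffer (1.1 to 1.41). Aldh1a1, Rdh10 and Dhrs3 were each highest in saline, though the Dhrs3 fold of 1.43 in saline against buffer did not pass. The list of retinol and retinal enzymes did not move together in that comparison. Of its 8 genes averaging at least 10 counts, 4 had folds above 1 and 4 below, with a median log2 fold of -0.01.

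None of the 3 other retinoid lists held a gene past a threshold. The 10 receptor partners and co-regulators had folds between 0.778 and 1.26 in all 3 comparisons, with Rxra at 750, 684 and 579 reads and Rxrg, a gene of cone photoreceptors, at 455, 409 and 527 after rounding. Among the 9 uptake and binding genes in the table, Stra6, the receptor for retinol-binding protein, had 216, 265 and 231 reads. Of the 11 retinoic acid target genes in the table, Nr2f2, a nuclear receptor gene, came closest with 477, 694 and 464 reads, with a fold of 0.669 in STZ against saline. Tgm2, another target gene, had 56, 35 and 34 reads. Hoxb1 was not analysed here.

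**Figure D4:**
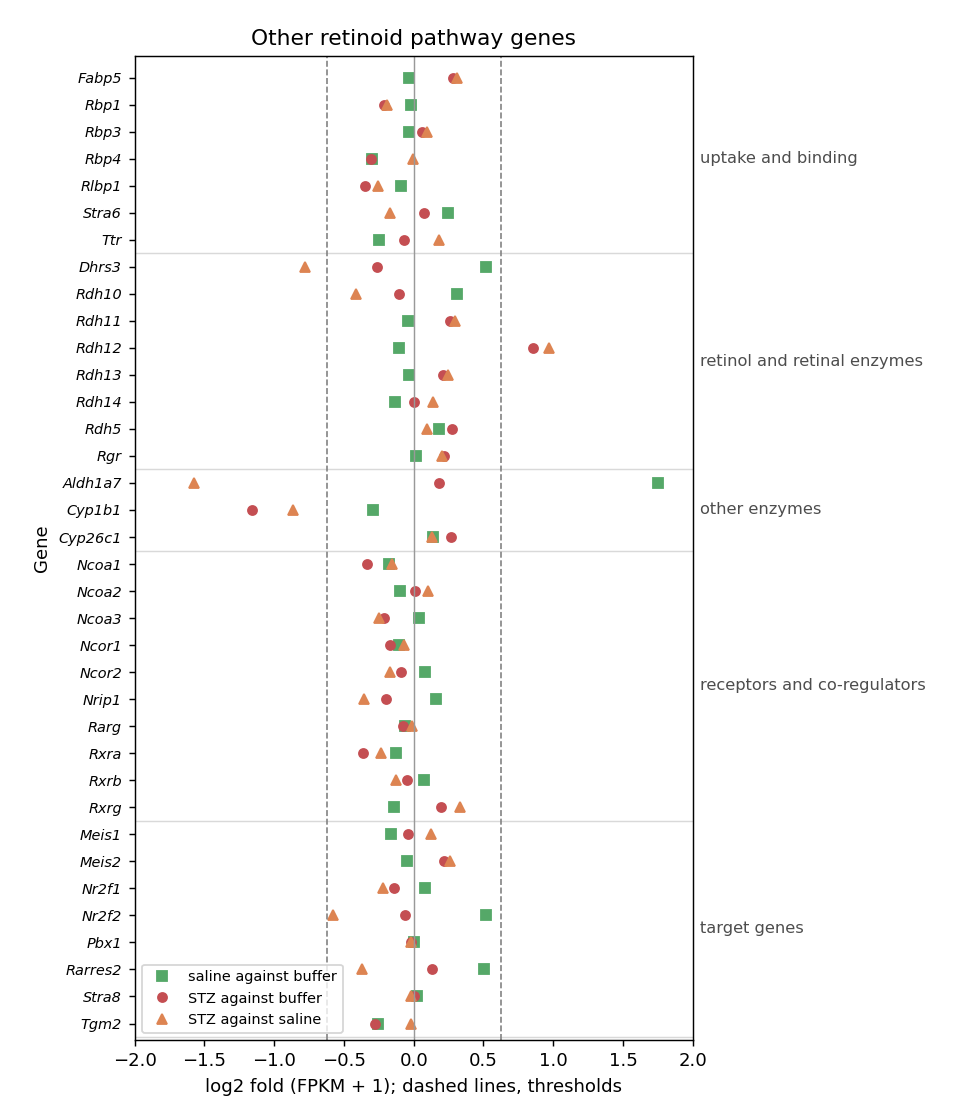
log2 folds of (FPKM + 1) for the 36 other retinoid pathway genes averaging at least 10 counts, by list, with 1 symbol per comparison and dashed lines at the thresholds. Points outside the lines belong to Aldh1a7, Cyp1b1, Rdh12 and Dhrs3.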

How the data were processed

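RNA of P4 rat retina was measured in 3 libraries, 1 per condition. The authors checked reads with FastQC, trimmed poor 5′ ends, mapped them with TopHat2 with up to 2 mismatches, discarded reads with several locations, and deposited FPKM from a custom R script. Beside it they deposited TPM and an estimated count (expected count) per gene, fractional in at least 1 library for 2858 of 18425 genes. Counts were rounded for intervals. The build in the submitters' processing notes is rn6. The counting tool is not given in the sources used here. The tables per library equal the joint table, with a largest difference of 0.

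Folds, thresholds and intervals are as described above. Genes at or under 3 counts got no fold in the text. Named genes were the 9, genes of the lists past a threshold averaging at least 10 counts, retinoid list genes, and for each of the 9 past a threshold averaging at least 50 counts the 5 nearest genes with whole counts. The 9 genes and the 15 lists were chosen with earlier results of these data known. A few genes of the lists are not reported here, and the list sums and counts leave them out. Values of marker genes at 0 reads, Ttr and Col1a1, and the comparison of Rarg with Rarb were picked after values were seen. List symbols absent from the table were matched by identifier through RefSeq (GRCr8), which holds 17120 of the identifiers and was otherwise used for promoter windows only.

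The settings varied were the pseudocount (0.1), the thresholds (2 and 0.5), TMM factors (edgeR 4.0.16), median-of-ratios factors (DESeq2 1.42.0, R 4.3.3), CPM, TPM, a minimum mean of 10 counts and the counting interval. No count model was fitted, since no condition has replicates. Python 3.11.15, numpy 2.4.6, pandas 2.3.3, scipy 1.17.1 and matplotlib 3.10.9 were used, and the calculations were tested on simulated data.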

Additional observations from a re-analysis of the deposited data

How the results depend on the processing

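Under each of 5 alternatives, all 27 folds of the 9 genes moved by less than 0.5 of the log2 width of their counting interval. That width is largest where reads are few, so the rule says little about the weakly expressed genes. The Aldh1a2 fold in STZ against buffer went from 0.75 to 0.387 with a pseudocount of 0.1 and still met it. Only Rara in STZ against buffer crossed 1, from 0.95 to 1.01 with CPM. The count of the 9 past the thresholds changed in STZ against buffer, from 2 to 4 with a pseudocount of 0.1, CPM or TPM, which add Aldh1a2 and Aldh1a3, to 3 with TMM or median-of-ratios factors, which add Aldh1a3, and to 0 with thresholds of 2 and 0.5. In STZ against saline it went from 3 to 4 with a pseudocount of 0.1, CPM or TPM, and to 2 with thresholds of 2 and 0.5. By the counting interval, 3, 5 and 5 of the 9 differed in saline against buffer, STZ against buffer and STZ against saline. For the 47 other retinoid genes these counts were 18, 20 and 25. With a pseudocount of 0.1, 7 passed in saline against buffer and 6 in STZ against buffer. With CPM, 2 passed in saline against buffer. With thresholds of 2 and 0.5, 1 passed in each comparison with STZ. Over all genes, 264, 606 and 697 passed in the 3 comparisons. These became 1654, 2263 and 2535 with a pseudocount of 0.1, 100, 218 and 215 with thresholds of 2 and 0.5, and 4259, 6858 and 7660 by the counting interval. With TPM they were 480 in saline against buffer and 1088 in STZ against saline. TPM values are larger than FPKM, so the added 1 weighs less. No paired analysis was possible because each condition has 1 library, which also allows no leave-one-out value. Counts of 6 to 83 for Aldh1a2, Aldh1a3 and Cyp26b1 limit what can be seen for these genes.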

Other observations

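Aldh1a1 and Cyp26a1 each had equal deposited counts in buffer and STZ, 1904 and 136 reads. Of the 11802 genes averaging at least 100 counts, 39 had exactly equal deposited counts, before rounding, in these libraries, 56 in buffer and saline and 31 in saline and STZ.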
